A study of Drosophila melanogaster and Drosophila simulans with 122 samples.

Results

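The testis bromodomain genes of Drosophila melanogaster are tbrd-1, tbrd-2 and tbrd-3. They were matched by symbol and gene identifier, and all 3 were found among the 17612 genes of the D. mel count tables. Their RNA levels were followed through spermatogenesis and in whole testes of 3 lines that differ at the X-linked microRNA locus mir-983. The series holds 122 RNA sequencing libraries of D. melanogaster and D. simulans, and the 71 D. mel libraries were used here.

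In the D. mel KO line, CRISPR-Cas9 removed both D. melanogaster copies of the microRNA, dme-mir-983-1 with dme-mir-983-2, on the w1118 background. In the replacement line, a single copy of the D. simulans microRNA dsi-mir-983a stood in their place. The control, D. mel WT, was w1118 itself. The red fluorescent marker used for screening was removed from both edited lines with Cre, which left a loxP site, and each genotype was 1 line. Whole testes were dissected from males of 3 to 5 days, as pooled testis pairs, with 3 libraries per line. Single spermatogenic cysts came from males of 2 to 3 days. Each was picked by size and shape and amplified on its own, as spermatogonia (SG), late primary spermatocytes (pSC), round spermatids (rST) or elongating spermatids (eST). The cysts of the D. mel KO line numbered 4 SG, 5 pSC, 6 rST and 6 eST, those of the replacement line 5 of each stage, and those of D. mel WT 6 SG, 5 pSC, 5 rST and 5 eST. A cyst is a clone of germ cells within its somatic cyst cells, so that fewer cells of a type and less RNA per cell cannot be told apart. Nothing in the labels tied cysts to individual males, so p-values measure the spread between these cysts.

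Bromodomains are protein folds that bind acetylated lysines, mainly on histone tails. The tBRD proteins belong to the BET-like bromodomain proteins and are restricted to the fly testis, where they are known from primary spermatocytes, the cells that transcribe most of what meiosis and spermatid differentiation need. tBRD-1 is known to bind acetylated histones, to interact with tBRD-2 and with testis-specific TATA-binding protein associated factors (testis TAFs), and to be required for male fertility, and tBRD-2 and tBRD-3 are its related partners in spermatocyte nuclei. The general BET protein of the fly is encoded by fs(1)h.

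The gene tbrd-1 (FBgn0039124) lies on the minus strand of chromosome 3R, from 23891597 to 23893560, with 2 annotated transcripts of 2 exons each and a coding length of 1539 bases for 513 residues. An exon of it overlaps the annotated pseudogene CR46402. The gene tbrd-2 (FBgn0034423) lies on the plus strand of chromosome 2R, from 19259909 to 19262294, with 2 exons and a coding length of 2022 bases for 674 residues. The gene tbrd-3 (FBgn0050417) is the shortest, a single exon on the minus strand of 2R from 23326739 to 23327581, with a coding length of 804 bases for 268 residues. Its 3′ end overlaps that of CG9861, a gene of the opposite strand, and the counting did not use strand, so that reads in the overlap cannot be assigned to either gene with certainty. These are the coordinates of the deposited FPKM files (release 6 of the fly genome).

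Total counts ranged between 14870386 and 24086166 reads in the 62 cysts and between 15478484 and 21368301 reads in the 9 testis libraries. The members were read at every stage, although tbrd-3 had as few as 13 reads in 1 eST cyst and 19 reads in 1 rST cyst. No 2 libraries were identical. Over 10225 genes, 57 of the 62 cysts were most like another cyst of their own stage by rank correlation. The other 5 were D. mel WT pSC replicate 4, D. mel WT rST replicate 3, D. mel WT eST replicate 3, replacement SG replicate 4 and replacement pSC replicate 2. The deleted microRNA copies were above 0 FPKM in 4 of 71 libraries, with a maximum of 0.147 FPKM, so that these libraries do not check the deletion.

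By group mean all 3 genes were highest in late primary spermatocytes in every line, and their lowest cyst stage was a spermatid stage. Not every spermatid group was low, since tbrd-3 in D. mel KO averaged 45.4 FPKM in eST and 50.1 FPKM in SG cysts. FPKM scales the fragments of a transcript to its length and to the depth of the library, so that it is a scale per length on which the 3 genes can be set side by side. Over all lines, the median level of tbrd-1 was 95.1 FPKM in SG, 131 FPKM in pSC, 6.42 FPKM in rST and 12.9 FPKM in eST cysts, and 59.5 FPKM in testes. The median level of tbrd-2 was 63.2 FPKM in SG, 130 FPKM in pSC, 7.79 FPKM in rST and 9.01 FPKM in eST cysts, and 33.1 FPKM in testes. The median level of tbrd-3 was 54.7 FPKM in SG, 87.7 FPKM in pSC, 14.7 FPKM in rST and 10.9 FPKM in eST cysts, and 21.3 FPKM in testes. In pSC these medians stood at the 92.3, 91.4 and 87.8 percentiles of all genes by FPKM for tbrd-1, tbrd-2 and tbrd-3 in turn. Descending by median, pSC came before SG and SG before whole testis for all 3 genes, while the spermatid stages at the low end stood in different orders.

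**Figure D1:**
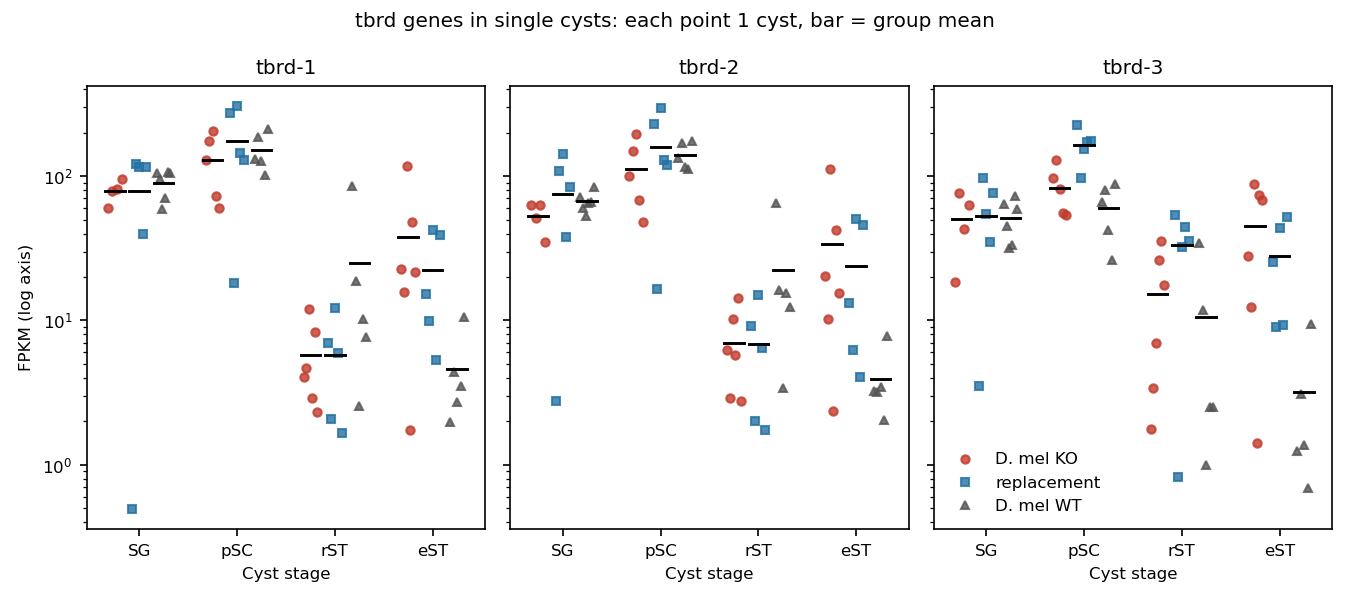
Level of tbrd-1, tbrd-2 and tbrd-3 in each single cyst, in FPKM on a log axis, by stage from SG to eST, with D. mel KO (circles), the replacement line (squares) and D. mel WT (triangles) side by side; each point is 1 cyst and each bar a group mean. All group means peak at pSC, and in eST 5 of 6 D. mel KO cysts sit above the highest D. mel WT cyst for every gene, which reaches 10.6 FPKM at most.

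In late primary spermatocytes, tbrd-1 was at 129, 177, 206, 72.8 and 60.0 FPKM in D. mel KO cysts, at 275, 18.2, 306, 144 and 130 FPKM in replacement cysts and at 131, 188, 127, 103 and 212 FPKM in D. mel WT cysts. The 3 lines overlapped, and replacement replicate 2, one of the cysts most like another stage, stood below all others. Its partner tbrd-2 was at 101, 150, 195, 68.4 and 48.1 FPKM in D. mel KO cysts, at 230, 16.5, 298, 130 and 120 FPKM in replacement cysts and at 134, 169, 115, 112 and 175 FPKM in D. mel WT cysts. It followed tbrd-1 cyst by cyst, the ratio of tbrd-1 to tbrd-2 staying between 0.913 and 1.28 in the 15 pSC cysts.

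The third member behaved differently at this stage. tbrd-3 was at 96.5, 129, 81.4, 55.5 and 53.9 FPKM in D. mel KO pSC cysts, at 225, 97.7, 154, 172 and 175 FPKM in replacement pSC cysts and at 66.3, 79.8, 42.0, 26.1 and 87.7 FPKM in D. mel WT pSC cysts. All 5 replacement cysts stood above the highest D. mel WT cyst, including replicate 2, while the D. mel KO cysts overlapped both. The share of all genes with replacement cysts so placed was not counted. The means were 83.2 ± 31.3 FPKM (SD, n = 5) in D. mel KO, 165 ± 45.7 FPKM (SD, n = 5) in the replacement line and 60.4 ± 25.8 FPKM (SD, n = 5) in D. mel WT. A gene was called where edgeR's quasi-likelihood test gave a Benjamini-Hochberg adjusted p under 0.05 and a change over 2-fold.

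By that rule tbrd-3 rose in replacement pSC cysts over D. mel WT, with a log2 fold change of 1.60 ± 0.25 (SE) and an adjusted p of 0.0016. It was 1 of 3 members called, beside 3.95% of the 12971 genes tested, 1.11% of those tested being called higher. The call held in all fits tried, with log2 fold changes of 1.41 to 1.73 on leaving out 1 cyst at a time. Between the replacement line and D. mel KO the difference of tbrd-3 was 0.90 ± 0.25 on the log2 scale, with an adjusted p of 0.0866 in edgeR, and between D. mel KO and D. mel WT it was 0.70 ± 0.25, with an adjusted p of 0.151. For these comparisons 0 of 3 members were called by edgeR or DESeq2, against 1.73% and 1.80% of genes called in edgeR. In each, 1 of 3, tbrd-3, had an unadjusted p under 0.05 in edgeR, against 1554 and 2324 of the 12971 genes. Over the other edgeR and DESeq2 fits tried, the adjusted p of tbrd-3 ran from 0.0163 to 0.267 and from 0.0325 to 0.317 in the same order. None of these fits gave a call, which also needed a change over 2-fold. The overlapping gene CG9861 had a log2 fold change of −0.74 in replacement over D. mel WT pSC cysts, with an adjusted p of 0.274 in edgeR, the opposite sign to tbrd-3. The summed level of 4 muscle markers was 3.05 to 9.56 FPKM in replacement pSC cysts and 4.25 to 8.82 FPKM in D. mel WT pSC cysts other than replicate 1, which had 138 FPKM. The cyst cell markers tj, eya, zfh1 and so summed to 8.67 to 27.7 FPKM, with a median of 14.3 FPKM, in replacement pSC cysts and to 15.3 to 35.6 FPKM, with a median of 31.9 FPKM, in D. mel WT pSC cysts. The sum of 6 accessory gland markers was 11.0 to 35.8 FPKM in replacement pSC cysts and 6.05 to 16.1 FPKM in D. mel WT pSC cysts, and their part in the result was not tested.

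tbrd-1 and tbrd-2 gave no call between lines at pSC. In the replacement line over D. mel WT, the log2 fold change was 0.26 ± 0.42 for tbrd-1 and 0.21 ± 0.42 for tbrd-2, with adjusted p of 0.772 and 0.819 in edgeR. In D. mel KO over D. mel WT, it was −0.01 ± 0.42 for tbrd-1 and −0.14 ± 0.42 for tbrd-2. Among the genes of the same spermatocyte programme, 0 of 5 testis TAF genes were called in replacement over D. mel WT pSC cysts, with a median log2 fold change of 0.60 beside 0.08 over all genes. Of 7 genes of the testis meiotic arrest complex (tMAC, which with the testis TAFs switches on the spermatocyte programme), achi and vis rose, by 3.77 and 2.29 on the log2 scale. These 2 are near-identical neighbouring copies whose reads cannot be assigned to either with certainty, so that their values are uncertain.

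Whole testes showed the same order of the lines for tbrd-3, while the other members differed less between lines. tbrd-3 was at 22.8, 21.0 and 21.3 FPKM in D. mel KO testes, at 32.9, 31.6 and 26.9 FPKM in replacement testes and at 16.0, 12.9 and 15.7 FPKM in D. mel WT testes. The 3 groups did not overlap, with D. mel KO between the other lines. The share of all genes whose testis groups were apart in this way was not counted. The means were 21.7 ± 0.975 FPKM (SD, n = 3) in D. mel KO, 30.5 ± 3.15 FPKM (SD, n = 3) in the replacement line and 14.9 ± 1.71 FPKM (SD, n = 3) in D. mel WT. Set against D. mel WT, the means were 1.46 times as high in D. mel KO and 2.05 times as high in the replacement line on the FPKM scale.

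**Figure D2:**
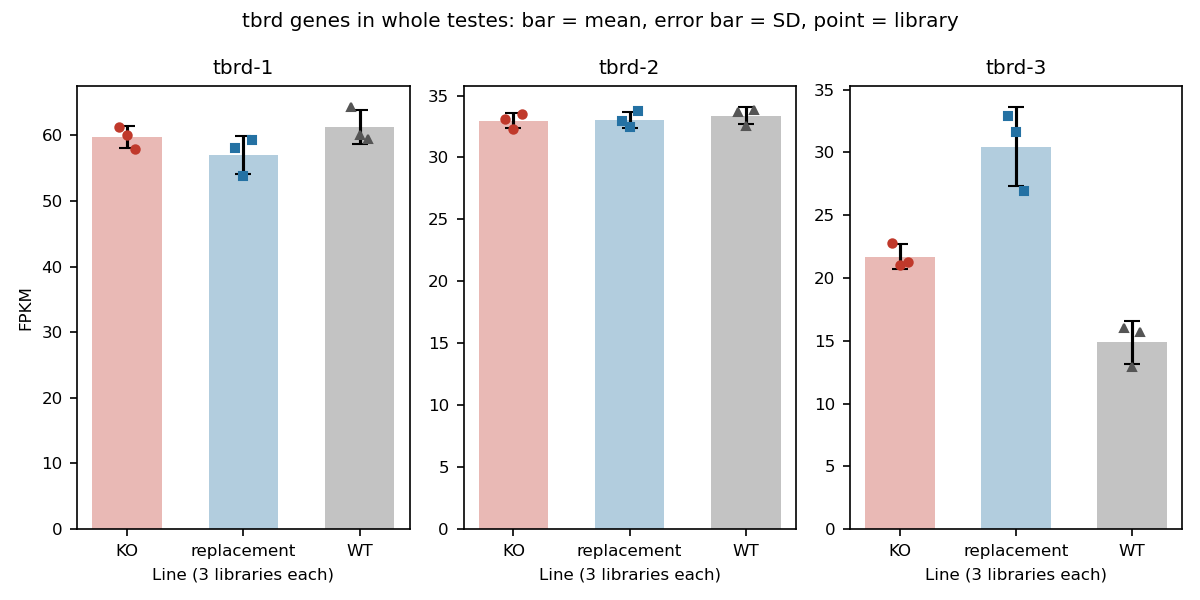
Level of tbrd-1, tbrd-2 and tbrd-3 in whole testes, in FPKM on linear axes that start at 0, with 3 libraries per line; bars are means, error bars SD and points libraries. tbrd-3 averages 21.7 FPKM in D. mel KO, 30.5 FPKM in replacement and 14.9 FPKM in D. mel WT testes. The line means lie between 57.1 and 61.3 FPKM for tbrd-1 and between 33.0 and 33.4 FPKM for tbrd-2.

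On normalised counts the same differences were smaller. tbrd-3 had 371, 356 and 359 normalised counts in D. mel KO testes, 514, 481 and 411 in replacement testes and 304, 234 and 296 in D. mel WT testes. In edgeR's quasi-likelihood test the log2 fold change of tbrd-3 was 0.38 ± 0.11 in D. mel KO over D. mel WT (adjusted p = 0.0261), 0.37 ± 0.10 in the replacement line over D. mel KO (adjusted p = 0.0199) and 0.75 ± 0.11 in the replacement line over D. mel WT (adjusted p = 1.1e-04). Each stayed under 2-fold, so that 0 of 3 members were called in any of these comparisons, against 5.17%, 6.18% and 7.68% of the 12845 genes tested. An adjusted p under 0.05 with no bound on the fold was reached by 17.1%, 21.8% and 29.2% of genes in the same comparisons and by 1 of 3 members, tbrd-3, in each. DESeq2 called 0 of 3 members in each as well. On leaving out 1 library at a time the D. mel KO over D. mel WT value lay between 0.27 and 0.45, with adjusted p of 0.0767 without D. mel KO replicate 1, 0.0611 without D. mel KO replicate 3 and 0.113 without D. mel WT replicate 2, and the replacement over D. mel WT value between 0.64 and 0.84. The replacement over D. mel KO value lay between 0.30 and 0.46, with adjusted p of 0.079 without replacement replicate 1, 0.0669 without replacement replicate 2 and 0.0545 without D. mel KO replicate 3 in edgeR.

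tbrd-1 was at 61.3, 60.1 and 57.9 FPKM in D. mel KO testes, at 58.1, 53.8 and 59.4 FPKM in replacement testes and at 64.3, 60.1 and 59.5 FPKM in D. mel WT testes. On this scale all 3 replacement testes lay below the lowest D. mel WT testis, at 59.36 against 59.47 FPKM where they came nearest. How many of all genes were so placed was not counted. tbrd-2 was at 33.1, 32.3 and 33.5 FPKM in D. mel KO testes, at 32.9, 32.5 and 33.7 FPKM in replacement testes and at 33.7, 32.6 and 33.8 FPKM in D. mel WT testes. Log2 fold changes of tbrd-1 lay at 0.01 ± 0.06 in D. mel KO over D. mel WT and 0.00 ± 0.06 in replacement over D. mel WT. Those of tbrd-2 lay at 0.02 ± 0.05 and 0.08 ± 0.05 in the same comparisons, with adjusted p of 0.291 or more in edgeR for both genes. The precision of these libraries, with a biological coefficient of variation of 9.07%, was far above that of the cysts, where it was 41.0% to 71.1%.

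Markers of other cell types differed between the lines in the same testes. The 4 cyst cell markers summed to 24.2 to 26.5 FPKM in D. mel KO testes, 23.2 to 24.3 FPKM in replacement testes and 29.7 to 30.4 FPKM in D. mel WT testes, so that both edited lines lay below D. mel WT without overlap. The 4 spermatocyte markers (twe, Rbp4, bol and CycB3) summed to 820 to 858 FPKM in D. mel KO testes, 817 to 869 FPKM in replacement testes and 763 to 804 FPKM in D. mel WT testes. No testis TAF, tMAC or other bromodomain gene was called in D. mel KO or replacement over D. mel WT testes. Of 6 accessory gland markers, 5 rose in D. mel KO and 1 (SP) in replacement over D. mel WT testes. Their sums were 11.4, 293 and 10.3 FPKM in D. mel KO testes, 9.94 to 11.2 FPKM in replacement testes and 6.25 to 7.57 FPKM in D. mel WT testes, where Acp98AB and SP were at 0. The high sum was that of D. mel KO replicate 2 alone, and without this library tbrd-3 had a log2 fold change of 0.39 in D. mel KO over D. mel WT (adjusted p = 0.0344 in edgeR). The other D. mel KO testes and all replacement testes also lay above every D. mel WT testis in the accessory gland sum. The parts of the accessory gland, spermatocyte and cyst cell markers in the tbrd-3 values were not tested. CG9861 had a log2 fold change of −0.08 in D. mel KO and 0.12 in replacement over D. mel WT testes.

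Elongating spermatids were the stage at which all 3 members differed between the lines. tbrd-1 was at 1.73 FPKM at the lowest, 22.1 FPKM at the median and 117 FPKM at the highest in 6 D. mel KO eST cysts, at 15.3, 9.92, 42.1, 5.31 and 39.3 FPKM in replacement eST cysts and at 1.97, 4.38, 2.72, 3.51 and 10.6 FPKM in D. mel WT eST cysts. For tbrd-2 the D. mel KO eST cysts had a lowest value of 2.34, a median of 17.9 and a highest value of 111 FPKM, the replacement eST cysts were at 13.2, 6.23, 50.7, 4.07 and 45.6 FPKM, and the D. mel WT eST cysts were at 3.24, 3.16, 3.43, 2.03 and 7.83 FPKM. For tbrd-3 the D. mel KO eST cysts had a lowest value of 1.41, a median of 47.9 and a highest value of 88.7 FPKM, the replacement eST cysts were at 25.4, 8.99, 43.9, 9.30 and 52.1 FPKM, and the D. mel WT eST cysts were at 1.24, 3.09, 1.36, 0.693 and 9.47 FPKM. For every member, 5 of 6 D. mel KO cysts and 3 of 5 replacement cysts stood above the highest D. mel WT cyst. Such counts were not made over all genes. D. mel KO replicate 4 stayed below the highest D. mel WT cyst for all 3 genes.

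Against D. mel WT, all 3 members rose in D. mel KO eST cysts. By edgeR's quasi-likelihood test the log2 fold change was 2.35 ± 0.61 for tbrd-1 (adjusted p = 0.0413), 2.35 ± 0.63 for tbrd-2 (adjusted p = 0.047) and 3.23 ± 0.75 for tbrd-3 (adjusted p = 0.0232). Of the 12452 genes tested in this comparison, 3.24% were called and 1.84% were called higher. These calls were close to the threshold. Leaving out 1 cyst ended the calls of tbrd-1 and tbrd-2 for D. mel WT eST replicates 1, 2, 3 and 4 and for D. mel KO eST replicates 1, 3, 5 and 6, in 8 of 11 cases each, with log2 fold changes of 1.91 to 2.59 for tbrd-1 and 1.84 to 2.59 for tbrd-2 and adjusted p of 0.0569 to 0.126. The call of tbrd-3 ended in 4 of 11 cases (D. mel WT eST replicates 1, 2 and 4, D. mel KO eST replicate 5), at 2.97 to 3.20 with adjusted p of 0.0518 to 0.0588. In a fit of only these 2 lines the fold changes were 2.35, 2.34 and 3.23, with adjusted p of 0.0688 for tbrd-1, 0.0521 for tbrd-2 and 0.0525 for tbrd-3.

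In replacement over D. mel WT eST cysts, tbrd-2 rose by 2.28 ± 0.65 (adjusted p = 0.0462) and tbrd-3 by 2.85 ± 0.76 (adjusted p = 0.0326) on the log2 scale in edgeR. tbrd-1 had a log2 fold change of 1.99 ± 0.62 with an adjusted p of 0.0648 and was not called, while DESeq2 called it (1.95, adjusted p = 0.0125), as did edgeR in a fit of only these 2 lines (1.90, adjusted p = 0.0388). So 2 of 3 members were called, beside 5.11% of all genes tested, 2.24% of those tested being called higher. The calls of tbrd-2 and tbrd-3 ended without any one of D. mel WT eST replicates 1 to 4 or replacement eST replicates 1, 3 and 5, at 1.83 to 2.40 for tbrd-2 and 2.59 to 2.83 for tbrd-3, with adjusted p of 0.0556 to 0.129. That of tbrd-1 was reached without D. mel WT eST replicate 5, at 2.46 with an adjusted p of 0.039. Between the replacement line and D. mel KO, 0 of 3 members were called against 1.61% of genes, with log2 fold changes of −0.36 ± 0.57, −0.07 ± 0.59 and −0.38 ± 0.67 for tbrd-1, tbrd-2 and tbrd-3. In edgeR 0 of 3 had an unadjusted p under 0.05 there, against 1746 of 12452 genes, and DESeq2 called 0 of 3.

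**Figure D3:**
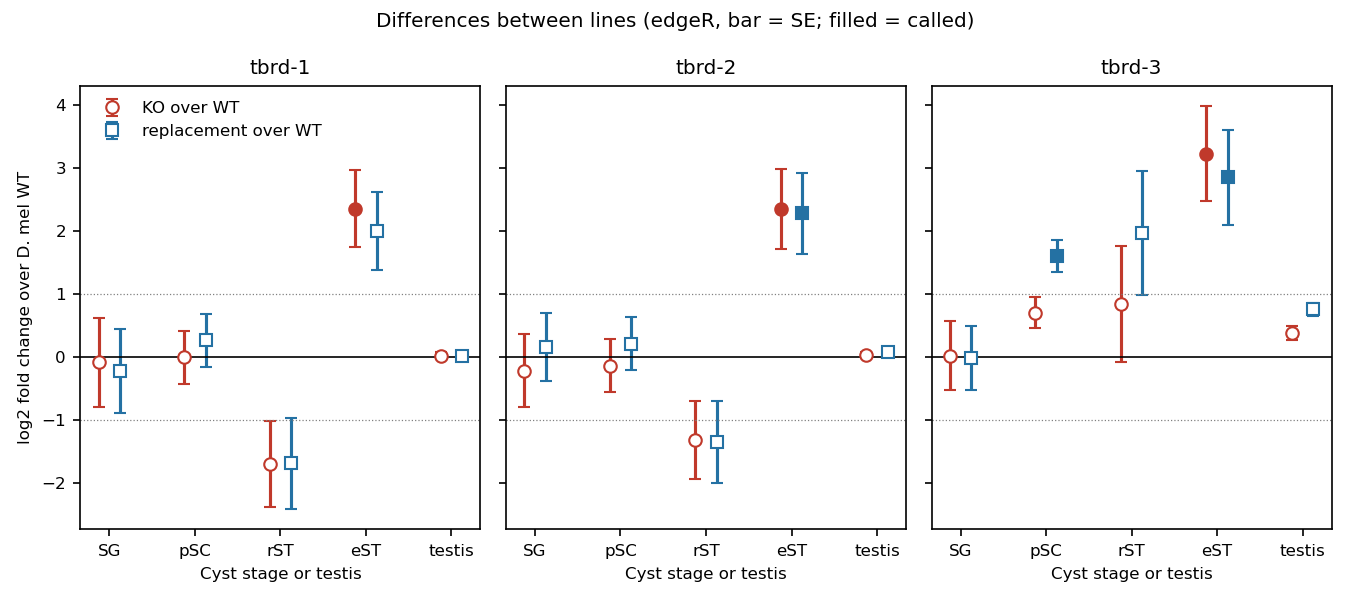
Log2 fold change of each tbrd gene over D. mel WT in D. mel KO (circles) and the replacement line (squares), by cyst stage and in whole testes; bars are SE from edgeR, filled symbols are called, and dotted lines mark a 2-fold change. The called values are tbrd-3 in replacement pSC cysts, at 1.60, and 5 values between 2.28 and 3.23 in eST cysts.

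Cyst by cyst, the tbrd level in eST went with that of the testis TAF genes can, mia, sa, nht and rye, which encode spermatocyte-specific relatives of the general TAFs. The TAF genes summed to 90.8, 53.7, 296, 39.5, 149 and 117 FPKM in D. mel KO eST cysts 1 to 6, to 75.0, 45.4, 113, 30.0 and 125 FPKM in replacement eST cysts 1 to 5 and to 40.3, 48.3, 84.2, 33.3 and 65.1 FPKM in D. mel WT eST cysts 1 to 5. D. mel KO replicate 3 was the highest and D. mel KO replicate 4 among the lowest both for the TAF genes and for the tbrd genes. Over the 16 eST cysts the correlation of log2(FPKM + 1) with this sum was 0.86 for tbrd-1 (Spearman 0.84), 0.90 for tbrd-2 (0.87) and 0.81 for tbrd-3 (0.85), given as a description, since all values of a cyst share 1 library. The TAF genes were not alone in this. With the 6 accessory gland markers the correlation was 0.76 for tbrd-1, 0.76 for tbrd-2 and 0.77 for tbrd-3. In the same order of genes it was 0.71, 0.79 and 0.66 with the 7 tMAC genes. With the 4 muscle markers it was 0.60, 0.58 and 0.62. The general TAF genes gave 0.73, 0.68 and 0.67, and the other bromodomain genes 0.62, 0.68 and 0.49. Spermatocyte markers gave 0.52, 0.58 and 0.47, and spermatogonial markers 0.44, 0.53 and 0.41. The correlation was negative with the cup and comet genes, transcribed after meiosis, at −0.64, −0.72 and −0.55. The spermatid genes that need testis TAFs and tMAC gave −0.44, −0.52 and −0.47, and the cyst cell markers −0.21, −0.24 and −0.42. The correlation with the testis TAF genes was also taken without the 2 cysts farthest from the median sum. It was then 0.82 for tbrd-1, 0.88 for tbrd-2 and 0.86 for tbrd-3.

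**Figure D4:**
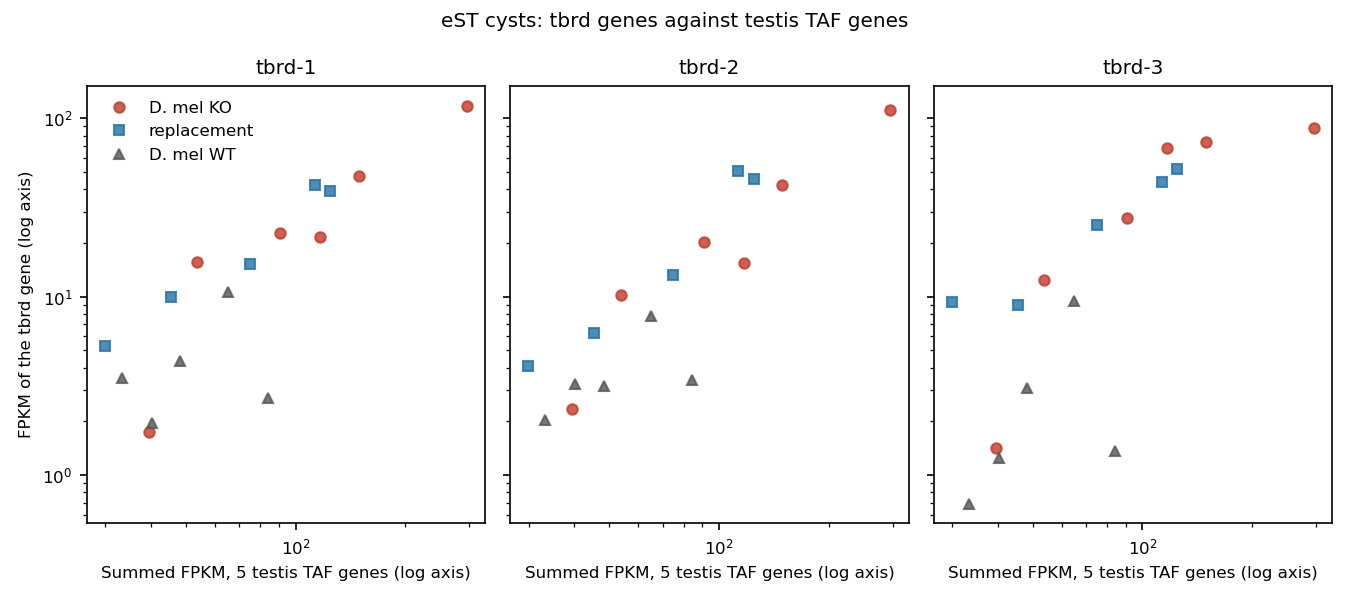
FPKM of each tbrd gene against the summed FPKM of 5 testis TAF genes in the 16 eST cysts, both on log axes, with D. mel KO as circles, the replacement line as squares and D. mel WT as triangles. Cysts with more testis TAF RNA have more tbrd RNA, up to D. mel KO replicate 3 at a sum of 296 FPKM, and D. mel WT replicate 3 lies low in tbrd level for its sum of 84.2 FPKM.

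The testis TAF genes themselves were not called at this stage. In D. mel KO over D. mel WT 0 of 5 were called (median log2 fold change 0.71, beside −0.08 over all genes). In replacement over D. mel WT 0 of 5 were called (0.48, beside 0.04). Of 7 tMAC genes only achi and vis were called, and both rose, by 3.97 and 2.60 on the log2 scale in D. mel KO and by 4.22 and 2.57 in the replacement line. Of 4 spermatocyte markers, the cyclin gene CycB3 rose by 2.51 in D. mel KO and by 2.42 in the replacement line, and 3 were not called in each. Of 15 other bromodomain genes, polybromo fell by 1.94 in D. mel KO and none was called in the replacement line. fs(1)h averaged 0.759 FPKM in D. mel KO, 0.761 FPKM in replacement and 0.728 FPKM in D. mel WT eST cysts.

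Markers of spermatid stage and of other tissues were set beside these values. The 8 cup and comet genes, which are transcribed after meiosis, summed to 1966 to 5026 FPKM in D. mel KO eST cysts, 1064 to 4547 FPKM in replacement eST cysts and 3100 to 5181 FPKM in D. mel WT eST cysts. D. mel KO replicate 3, with the highest tbrd levels, was the cyst at 1966 FPKM. None of the 8 was called in D. mel KO, and 2 (d-cup and soti) fell in the replacement line over D. mel WT. The 4 spermatocyte markers summed to 190 to 451 FPKM in D. mel KO eST cysts, 109 to 315 FPKM in replacement eST cysts and 104 to 292 FPKM in D. mel WT eST cysts. The 6 accessory gland markers summed to 6.76 to 31.0 FPKM in D. mel KO eST cysts, 6.05 to 18.3 FPKM in replacement eST cysts and 0.176 to 2.95 FPKM in D. mel WT eST cysts. The 4 cyst cell markers summed to 9.70 to 18.7 FPKM in D. mel KO, 8.60 to 14.6 FPKM in replacement and 12.2 to 31.3 FPKM in D. mel WT eST cysts. The part of these marker differences, and of the stage at which each eST cyst was picked, in the tbrd result was not tested.

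At the round spermatid stage 0 of 3 members were called by edgeR or DESeq2 in any comparison, against 5.69% of 12415 genes in D. mel KO over D. mel WT, 11.4% in replacement over D. mel WT and 4.37% in replacement over D. mel KO. tbrd-1 was at 2.31 FPKM at the lowest, 4.37 FPKM at the median and 12.0 FPKM at the highest in 6 D. mel KO rST cysts, at 6.94, 2.08, 12.1, 5.90 and 1.64 FPKM in replacement rST cysts and at 85.7, 18.6, 2.53, 10.2 and 7.69 FPKM in D. mel WT rST cysts. For tbrd-2, D. mel KO rST cysts had a lowest value of 2.76, a median of 5.96 and a highest value of 14.2 FPKM, replacement rST cysts were at 9.17, 2.02, 15.0, 6.41 and 1.73 FPKM, and D. mel WT rST cysts were at 64.9, 16.2, 3.40, 15.6 and 12.3 FPKM. The lines overlapped, and D. mel WT replicate 1 stood apart from all other rST cysts for these genes. In D. mel KO over D. mel WT the log2 fold change was −1.70 ± 0.68 for tbrd-1 (adjusted p = 0.119 in edgeR) and −1.32 ± 0.62 for tbrd-2 (adjusted p = 0.169). In replacement over D. mel WT it was −1.69 ± 0.73 for tbrd-1 (adjusted p = 0.101) and −1.35 ± 0.65 for tbrd-2 (adjusted p = 0.141). At an unadjusted p under 0.05, edgeR gave tbrd-1 and tbrd-2 in the D. mel KO comparison and tbrd-1 in the replacement one. Of all 12415 genes, 3573 and 4633 were under that bound in the same comparisons. The replacement value of tbrd-1 was called without D. mel WT rST replicate 3, at −1.96 with an adjusted p of 0.0447. D. mel WT replicate 1 also had the highest testis TAF sum of the stage, at 240 FPKM against 91.3 to 142 FPKM in the other 15 rST cysts.

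tbrd-3 was split in round spermatids. In D. mel KO rST cysts 1 to 6 it was at 1.77, 3.38, 6.97, 26.2, 35.8 and 17.5 FPKM, with a median of 12.2 FPKM. It was at 53.5, 0.821, 32.1, 44.1 and 35.3 FPKM in replacement rST cysts and at 34.6, 11.9, 0.997, 2.51 and 2.50 FPKM in D. mel WT rST cysts. The ratio of tbrd-3 to tbrd-1 was above 1 in 3 of 6 D. mel KO cysts (replicates 4, 5 and 6), in 4 of 5 replacement cysts (replicates 1, 3, 4 and 5) and in 0 of 5 D. mel WT cysts. That ratio ranged between 0.433 and 9.07 in D. mel KO, between 0.395 and 21.4 in the replacement line and between 0.246 and 0.638 in D. mel WT rST cysts. tbrd-1 lay between 1.64 and 12.1 FPKM in these 7 cysts. CG9861, whose 3′ end overlaps that of tbrd-3, lay between 55.5 and 81.8 FPKM in all 16 rST cysts. It was at 66.5, 72.3, 71.2, 57.3, 55.5 and 64.9 FPKM in D. mel KO rST cysts 1 to 6, so that replicates 4, 5 and 6 were below the others. In replacement rST cysts 1 to 5 CG9861 was at 72.3, 75.7, 68.2, 81.8 and 69.1 FPKM. There replicate 4, with tbrd-3 at 44.1 FPKM, had the highest CG9861 level of the stage. In D. mel WT rST cysts 1 to 5 it was at 60.4, 63.0, 78.7, 67.5 and 74.0 FPKM. The accessory gland markers summed to 12.6 to 20.3 FPKM in D. mel KO, 11.6 to 17.6 FPKM in replacement and 1.37 to 11.7 FPKM in D. mel WT rST cysts, and the cyst cell markers to 5.31 to 11.8 FPKM, 6.88 to 11.0 FPKM and 13.5 to 19.1 FPKM in the same order. Their part in the tbrd-3 values was not tested. The log2 fold change of tbrd-3 was 0.83 ± 0.92 in D. mel KO over D. mel WT (adjusted p = 0.557 in edgeR) and 1.96 ± 0.98 in replacement over D. mel WT (adjusted p = 0.154), neither called.

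**Figure D5:**
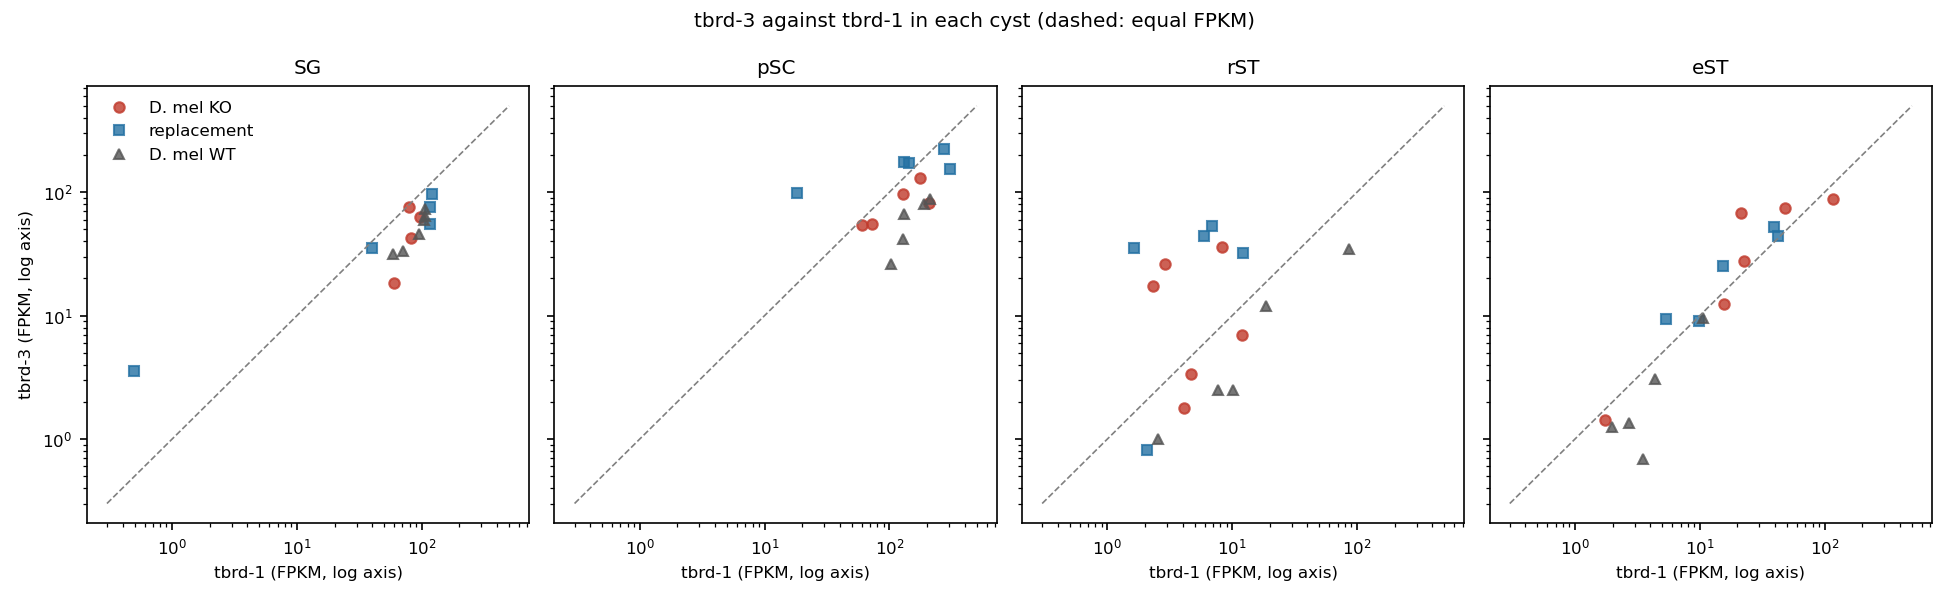
tbrd-3 against tbrd-1 in each cyst, both in FPKM on log axes, 1 panel per stage, with D. mel KO as circles, the replacement line as squares and D. mel WT as triangles; the dashed line marks equal levels. In rST, 3 D. mel KO and 4 replacement cysts lie above the line and all 5 D. mel WT cysts below it, while in eST the genes rise together.

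The pairwise likeness of the genes showed the same split. Over all 62 cysts, log2(FPKM + 1) of tbrd-1 and tbrd-2 had a Pearson correlation of 0.98 (Spearman 0.98), and it was 0.95 in SG, 0.99 in pSC, 0.95 in rST and 0.98 in eST. In SG it rested on 2 cysts, being 0.54 without the 2 farthest from the median. Between tbrd-3 and tbrd-1 the correlation was 0.81 over all cysts, 0.92 in SG, 0.36 in pSC, 0.28 in rST and 0.95 in eST. In rST it was 0.08 without the 2 cysts farthest from the median of tbrd-1. These are descriptions over cysts of 3 lines that share stage and library.

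In pSC cysts the ratio of tbrd-3 to tbrd-1 stayed at or below 0.897 in all 5 D. mel KO cysts and between 0.255 and 0.508 in D. mel WT cysts, while it reached 0.503 to 5.38 in replacement cysts, with 3 of 5 above 1. In testes it was 0.349 to 0.372 in D. mel KO, 0.453 to 0.588 in replacement and 0.215 to 0.264 in D. mel WT libraries, without overlap. How often other gene pairs were apart in this way was not counted. Whether pairwise ratios changed between successive stages was tested within each line with a two-sided exact permutation test over cysts. With 4 to 6 cysts a group, the smallest p these exact tests can give is 0.0022 to 0.0159, so that none could pass on its own after Benjamini-Hochberg adjustment over 27 tests. The lowest adjusted p was 0.107. Unadjusted, 3 tests had a p under 0.05, and 2 of them stood at the smallest p possible, tbrd-1 over tbrd-2 in rST against pSC of the replacement line (0.0079) and tbrd-3 over tbrd-2 in pSC against SG of D. mel WT (0.0043). tbrd-1 was the highest of the 3 genes in 9 of 9 testis libraries and in 10 of 15 pSC cysts, and tbrd-3 was the highest in 7 of 16 rST cysts.

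In spermatogonia all 3 genes were already read, at group means below those of pSC, and 0 of 3 members were called between lines, against 0.129% of 13188 genes in D. mel KO over D. mel WT, 1.90% in replacement over D. mel WT and 0.364% in replacement over D. mel KO. tbrd-1 was at 60.0, 79.1, 81.3 and 96.1 FPKM in D. mel KO SG cysts and at 0.492, 122, 117, 40.0 and 117 FPKM in replacement SG cysts. In 6 D. mel WT SG cysts it had a lowest value of 58.9, a median of 99.7 and a highest value of 107 FPKM. Replacement replicate 1 had the lowest tbrd-1 level of the 62 cysts. tbrd-2 was at 63.2, 51.3, 63.0 and 35.2 FPKM in D. mel KO SG cysts, at 2.76, 108, 143, 37.8 and 84.3 FPKM in replacement SG cysts and between 53.3 and 84.7 FPKM, with a median of 65.7 FPKM, in D. mel WT SG cysts. tbrd-3 was at 18.3, 76.5, 42.7 and 62.8 FPKM in D. mel KO SG cysts, at 3.53, 97.1, 54.7, 35.1 and 75.9 FPKM in replacement SG cysts and between 31.7 and 72.5 FPKM, with a median of 52.5 FPKM, in D. mel WT SG cysts. The lines overlapped for all 3 genes, and 0 of 3 members had an unadjusted p under 0.05 in edgeR or a call in DESeq2. Of the 13188 genes, 1103 were under that unadjusted bound in D. mel KO over D. mel WT. There were 2219 in replacement over D. mel WT and 1114 in replacement over D. mel KO.

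The replacement SG replicate 1 had the highest sum of 5 spermatogonial markers (bam, bgcn, aub, vas and nos), at 597 FPKM, and the lowest sum of 4 spermatocyte markers, at 44.4 FPKM. Its 5 testis TAF genes nevertheless summed to 357 FPKM, inside the range of the other SG cysts. In the rest of the SG group the spermatocyte markers summed to 163 to 319 FPKM in D. mel KO, 149 to 440 FPKM in replacement and 262 to 419 FPKM in D. mel WT cysts, so that spermatocyte markers were read in cysts picked as spermatogonia. Genes of later stages were read there too, the 8 cup and comet genes summing to 204 to 2054 FPKM in D. mel KO, 82.3 to 1131 FPKM in replacement and 1045 to 1826 FPKM in D. mel WT SG cysts, and the 5 spermatid genes that need testis TAFs and tMAC for their transcription (Mst87F, dj, fzo, gdl and janB) to 564 to 3968 FPKM, 126 to 2539 FPKM and 1329 to 2592 FPKM in the same order. The accessory gland markers summed to 15.0 to 288 FPKM in D. mel KO, 34.8 to 116 FPKM in replacement and 413 to 1922 FPKM in D. mel WT SG cysts. The part of all these markers in the SG values was not tested.

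From spermatogonia to late primary spermatocytes the rise of the group means was 1.63 times in D. mel KO, 2.21 times in the replacement line and 1.69 times in D. mel WT for tbrd-1, and between 2.11 and 2.12 times in each line for tbrd-2. Only 1 of these 9 stage changes was called, that of tbrd-3 in the replacement line, with a log2 fold change of 1.92 ± 0.74 and an adjusted p of 0.0268 in edgeR. It was ended by leaving out replacement SG replicate 1 (1.62, adjusted p = 0.0751) or replicate 5 (1.84, adjusted p = 0.0544). In that line 48.3% of the 13661 genes tested were called, and 26.3% of those tested were called higher, to be read beside 1 of 3 members. In D. mel KO 0 of 3 members were called against 40.7% of genes, with log2 fold changes of 0.93 ± 0.72 for tbrd-1, 1.27 ± 0.68 for tbrd-2 and 1.01 ± 0.78 for tbrd-3. In D. mel WT 0 of 3 were called against 17.2%, with log2 fold changes of 0.75 ± 0.64, 1.11 ± 0.59 and 0.23 ± 0.68. In both lines 0 of 3 had an unadjusted p under 0.05 in edgeR, against 7245 genes in D. mel KO and 4100 in D. mel WT. DESeq2 called tbrd-2 in both, at 1.46 (adjusted p = 0.0325) in D. mel KO and 1.41 (adjusted p = 0.0416) in D. mel WT. In the replacement line tbrd-1 had 1.30 ± 0.68 (adjusted p = 0.10) and tbrd-2 1.23 ± 0.63 (adjusted p = 0.0918), and tbrd-2 passed without replacement SG replicate 4 (1.61, adjusted p = 0.0392). DESeq2 called both there, tbrd-1 at 1.46 (adjusted p = 0.0306) and tbrd-2 at 1.38 (adjusted p = 0.0277), so that it called tbrd-2 in all 3 lines, and edgeR with DESeq2's size factors called both in the replacement line as well (adjusted p = 0.0458 and 0.0405). The share of all genes called by these alternative fits was not counted, so that their calls have no background beside them. Tested itself, the stage change of tbrd-3 differed by 0.79 ± 1.03 in D. mel KO minus D. mel WT and by 1.69 ± 1.00 in the replacement line minus D. mel WT. In these differences edgeR and DESeq2 called 0 of 3 members, against 0.505% and 1.13% of genes in edgeR. There 0 of 3 had an unadjusted p under 0.05 in edgeR, against 1367 and 2138 genes.

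Of 15 other bromodomain genes, 5 fell, 0 rose and 10 were not called between SG and pSC in D. mel WT, where 2144 of all 13661 genes fell, with a median log2 fold change of −0.83 beside 0.13 over all genes, the most being Brd7-9, a chromatin remodeller subunit, at −2.99. fs(1)h fell by 1.64, and averaged 0.783 FPKM in D. mel KO, 1.38 FPKM in replacement and 1.70 FPKM in D. mel WT pSC cysts against 5.87, 9.57 and 5.19 FPKM in SG cysts of the same lines in that order. Of 5 general TAF genes, Taf5 and Taf12 fell, with log2 fold changes of −1.99 and −2.55. None of 5 testis TAF genes was called, with a median of 0.16, and none of 7 tMAC genes, with a median of 0.63. Of 5 spermatogonial markers 4 fell, the most being aub (−4.68), a Piwi protein gene of early germ cells. None of 4 spermatocyte markers was called.

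The clearest change of the stage series was the fall into round spermatids. tbrd-1 fell between pSC and rST, with a log2 fold change of −4.03 ± 0.70 in D. mel KO (adjusted p = 9.3e-05), −4.28 ± 0.77 in the replacement line (adjusted p = 4.1e-05) and −2.24 ± 0.70 in D. mel WT (adjusted p = 0.0339) in edgeR. tbrd-2 fell, with −3.51 ± 0.64 in D. mel KO (adjusted p = 1.3e-04), −3.89 ± 0.70 in the replacement line (adjusted p = 4.2e-05) and −2.25 ± 0.65 in D. mel WT (adjusted p = 0.0231). For both genes no rST cyst reached the lowest pSC cyst of its own line. The same held for tbrd-3 in D. mel KO and the replacement line, but not in D. mel WT. How many of all genes were apart in this way was not counted. The log2 fold change of tbrd-3 was −2.02 ± 0.70 in D. mel KO (adjusted p = 0.0415, called), −1.78 ± 0.74 in the replacement line (adjusted p = 0.066) and −2.06 ± 0.75 in D. mel WT (adjusted p = 0.067, called by DESeq2 with an adjusted p of 0.0246). Members called lower were 3 of 3 in D. mel KO against 12.6% of genes, 2 of 3 in the replacement line against 21.8% and 2 of 3 in D. mel WT against 7.30%.

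For tbrd-1 and tbrd-2 the falls held their call in all fits tried in both edited lines, and the others depended on single cysts. In D. mel WT, tbrd-1 was not called without any one of pSC replicates 1, 2 and 5 or rST replicates 2, 3, 4 and 5 (−1.95 to −2.29, adjusted p of 0.0622 to 0.119 in edgeR), nor tbrd-2 without any one of pSC replicates 1 and 2 or rST replicates 2, 3, 4 and 5 (−1.98 to −2.28, adjusted p of 0.0502 to 0.0893). In D. mel KO, tbrd-3 was not called without any one of pSC replicates 1, 2 and 3 or rST replicates 1, 2, 3 and 6 (−1.78 to −2.07, adjusted p of 0.0644 to 0.102). In D. mel WT, tbrd-3 was called without rST replicate 1 (−3.13, adjusted p = 0.0065) or pSC replicate 4 (−2.27, adjusted p = 0.0369). The size of the fall was not shown to differ between lines. The difference was −1.79 ± 0.93 for tbrd-1 in D. mel KO minus D. mel WT and −2.05 ± 0.96 in the replacement line minus D. mel WT, and 0 of 3 members and 0% of genes were called in edgeR, with 456 and 1250 genes at an unadjusted p under 0.05. DESeq2 called 0 of 3 members in each as well.

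Part of the spermatocyte programme fell between the same stages in D. mel WT. Of 7 tMAC genes 3 fell (comr at −1.90, topi at −1.29 and tomb at −1.25 on the log2 scale), with a median of −1.29 beside −0.17 over all genes. None of 5 testis TAF genes was called, with a median of −0.97 and can lowest at −1.38 (adjusted p = 0.0772 in edgeR). Of 5 general TAF genes Taf6 and Taf4 fell, with −1.21 and −1.09. Of 15 other bromodomain genes 7 fell, BRWD3 the most at −3.02 and fs(1)h at −1.35. None of 8 cup and comet genes was called, with a median of 0.80, and none of the 5 spermatid genes that need testis TAFs and tMAC, with a median of 1.17.

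Between round and elongating spermatids the lines went apart. tbrd-1 rose in D. mel KO (2.50 ± 0.65, adjusted p = 0.0045) and the replacement line (2.09 ± 0.70, adjusted p = 0.0246), while in D. mel WT the log2 fold change was −1.81 ± 0.69 (adjusted p = 0.0543 in edgeR, not called). tbrd-2 rose in D. mel KO (1.99 ± 0.59, adjusted p = 0.0122) and the replacement line (1.90 ± 0.64, adjusted p = 0.0265) and fell in D. mel WT (−1.94 ± 0.64, adjusted p = 0.0259). tbrd-3 had 1.38 ± 0.67 in D. mel KO (adjusted p = 0.129), −0.09 ± 0.72 in the replacement line (adjusted p = 0.947) and −1.23 ± 0.74 in D. mel WT (adjusted p = 0.239), and was called in none. Members called higher were 2 of 3 in D. mel KO against 10.5% of genes and 2 of 3 in the replacement line against 13.1%, and 1 of 3 was called lower in D. mel WT against 10.3%. The rST and eST cysts overlapped for all 3 genes in every line.

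The difference of these stage changes was tested itself. For tbrd-1 it was 4.31 ± 0.95 on the log2 scale in D. mel KO minus D. mel WT (adjusted p = 0.0075) and 3.90 ± 0.98 in the replacement line minus D. mel WT (adjusted p = 0.0277) in edgeR. For tbrd-2 it was 3.93 ± 0.87 (adjusted p = 0.0076) and 3.85 ± 0.91 (adjusted p = 0.0224) in the same order. For tbrd-3 it was 2.62 ± 0.99 (adjusted p = 0.152) and 1.15 ± 1.02 (adjusted p = 0.658). So 2 of 3 members were called in each, against 3.31% of genes in D. mel KO minus D. mel WT and 1.77% in replacement minus D. mel WT. These differences share the D. mel WT cysts.

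One D. mel WT cyst weighed on all 4 calls. Without D. mel WT rST replicate 1 the differences were 3.14 (adjusted p = 0.089) for tbrd-1 and 3.17 (adjusted p = 0.085) for tbrd-2 in D. mel KO minus D. mel WT, and 2.73 (adjusted p = 0.235) and 3.09 (adjusted p = 0.167) in replacement minus D. mel WT, in edgeR. The replacement difference of tbrd-1 was also not called without any one of D. mel WT eST replicates 1, 2 and 3, replacement rST replicates 2, 4 and 5 and replacement eST replicates 3 and 5 (3.61 to 3.92, adjusted p of 0.0517 to 0.0772). That of tbrd-2 was not called without any one of D. mel WT eST replicate 1, replacement rST replicates 2 and 5 and replacement eST replicates 3 and 5 (3.43 to 3.80, adjusted p of 0.0529 to 0.066). Without D. mel WT eST replicate 5, tbrd-3 was called in D. mel KO minus D. mel WT (3.55, adjusted p = 0.0357).

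Single cysts also ended calls within a line. The rise of tbrd-2 in D. mel KO ended without eST replicate 3 (1.43, adjusted p = 0.0745 in edgeR). The rise of tbrd-1 in the replacement line ended without any one of rST replicates 2 and 5 and eST replicate 3 (1.80 to 1.90, adjusted p of 0.0603 to 0.0695), and that of tbrd-2 without any one of rST replicates 2, 4 and 5 and eST replicates 3 and 5 (1.49 to 1.89, adjusted p of 0.0512 to 0.0908). The fall of tbrd-2 in D. mel WT ended without rST replicate 1 (−1.18, adjusted p = 0.208) or any one of eST replicates 1, 2 and 4 (−1.84 or −1.85, adjusted p of 0.0625 to 0.0672). That of tbrd-1 in D. mel WT was called without any one of rST replicates 3 and 5 and eST replicate 5 (−2.03 to −2.24, adjusted p of 0.0271 to 0.0413). The rise of tbrd-1 in D. mel KO was called in all fits tried.

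By the shape of their levels over the 12 line and stage means, tbrd-1 and tbrd-2 were near neighbours among 10751 genes with a mean of at least 1 FPKM. The genes most like tbrd-1 were Sptr, a sepiapterin reductase gene (Pearson r 0.997), CAH14, of the carbonic anhydrase family (0.996), CR11386 (0.996), Best3, of the bestrophin family (0.995), and CG40813 (0.995), with tbrd-2 at rank 9 (0.994). Those most like tbrd-2 were CG5421 (0.996), CG3225 (0.996), CG9777 (0.995), tbrd-1 (0.994) and CG13137 (0.994). Those most like tbrd-3 were CG5397 (0.94), NaPi-III (0.93), CG2321 (0.92), Son (0.92) and CG8117, and tbrd-3 stood at rank 1761 for tbrd-1 (0.82). Of the testis TAF genes, sa (0.96) and nht (0.96) were most like tbrd-1, and mia least (0.38), while fs(1)h had 0.56.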

How the data were processed

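RNA was sequenced from whole testes and from single spermatogenic cysts, each cyst being amplified with a whole-transcriptome kit before library construction. The authors trimmed reads (Trimmomatic 0.36), aligned them (HISAT2 2.2.0), and deposited raw counts of reads per gene (HTSeq 0.6.0, union mode, no strand) and FPKM values per gene (StringTie 2.1.4). Amplification before sequencing and reads that overlap genes on both strands can shift values, and the counts are not molecules.

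Levels are given as the authors' deposited FPKM, tests use the deposited counts. Analyses used Python 3.11.15, R 4.3.3, edgeR 4.0.16 and DESeq2 1.42.0. Genes with a mean normalised count over 5 in at least 1 group were scaled by TMM and tested two-sided by edgeR's quasi-likelihood method, p-values being adjusted over all genes tested (Benjamini-Hochberg). A call needed an adjusted p under 0.05 and a change over 2-fold. Lines were compared in 1 fit for testes and 1 fit per cyst stage, stages and their differences in 1 fit over 62 cysts. Fold changes are the first named over the second. The method was also run on simulated data with 200 changed genes. Those counts followed the fitted trend of the spread and had no far cysts added. They therefore do not bear on calls that turn on 1 cyst. Ratios between genes are ratios of FPKM, and their tests used differences of log2(FPKM + 1).

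The genes named were all 3 members, from each gene list the called genes that moved most between stages in D. mel WT (all genes of a list of 5 or fewer may be named), fs(1)h, and for each member the 5 genes most like it. Called list genes between lines, tMAC genes called at rST and overlapping genes were added after their values were seen. The members and lists were chosen with earlier results of these data known. Alternatives were DESeq2 and its size factors, no filter or a minimum of 50, fewer samples per fit, a replicate block, leaving out each library and, chosen after seeing the data, leaving out the 5 cysts most like another stage. Shares of all genes called are those of the main edgeR fits and were not counted for the alternatives. D. simulans libraries were not used here. No sequences are printed.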

Additional observations from a re-analysis of the deposited data

Results flagged for a closer look

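Dixon's test at the 95% level was run on FPKM for each of 3 genes in 12 line and stage groups of 4 to 6 cysts. Of these 36 sets, 6 held a cyst far from the rest, each the highest of its set. The nominal rate of 1 in 20 holds for normally distributed values, which FPKM need not be, so that no rate by chance is given. In D. mel WT rST, replicate 1 stood at 85.7 FPKM for tbrd-1, with the nearest cyst at 18.6 FPKM, and at 64.9 FPKM for tbrd-2, with the nearest at 16.2 FPKM. In D. mel WT eST, replicate 5 stood at 10.6 FPKM for tbrd-1 (nearest 4.38 FPKM), 7.83 FPKM for tbrd-2 (nearest 3.43 FPKM) and 9.47 FPKM for tbrd-3 (nearest 3.09 FPKM). In D. mel KO eST, replicate 3 stood at 111 FPKM for tbrd-2, with the nearest at 42.5 FPKM. The genes share these 3 cysts, so that the 6 values are not independent.

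The change between round and elongating spermatids differed between lines by a direct test in edgeR. On the log2 scale the difference was 4.31 for tbrd-1 (adjusted p = 0.0075) and 3.93 for tbrd-2 (adjusted p = 0.0076) in D. mel KO minus D. mel WT, and 3.90 for tbrd-1 (adjusted p = 0.0277) and 3.85 for tbrd-2 (adjusted p = 0.0224) in the replacement line minus D. mel WT. All 4 rest in part on D. mel WT rST replicate 1, and the cause was not tested.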

How the results depend on the processing

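Of 36 comparisons of a member between lines in cysts, 6 were called. The number was 6 with DESeq2 size factors, with no filter and with a minimum of 50 normalised counts, 7 with DESeq2, 5 with the replicate block, 4 in fits of 2 groups, and 3 without the 5 cysts most like a cyst of another stage, an alternative chosen after seeing the data. In that alternative only D. mel WT replicate 3 was left out at eST. The eST calls of tbrd-1 and tbrd-2 in D. mel KO and of tbrd-2 and tbrd-3 in the replacement line ended. A lower tbrd-1 in replacement over D. mel WT rST cysts was called instead (−1.96, adjusted p = 0.0447 in edgeR). The parts of fewer samples and of the stage of these cysts in the change were not tested. Leaving out 1 library at a time gave 1 to 7 calls. Of 27 stage changes 13 were called, with 13 to 18 under the other tools, filters and samples (18 with DESeq2) and 11 to 14 on leaving out 1 library. The 4 differences between lines in a stage change were 4 under all other tools and filters, and 0 to 5 on leaving out 1 library, 0 without D. mel WT rST replicate 1. Testes gave 0 calls throughout. The tests of pairwise ratios could not pass on their own at these group sizes and say nothing about stability. Libraries left out were refitted only for the comparisons that hold them. Of 738 values under other tools, filters and samples, 707 stayed on their side of the threshold, 13 lost a call and 18 gained one, and of 1356 values without 1 library, 1261 stayed, 86 lost a call and 9 gained one. No called value changed sign. With the replicate block, tbrd-1 in D. mel KO over D. mel WT eST cysts had 2.06 (adjusted p = 0.0794 in edgeR), and the block changed no other call. Whether replicate numbers pair the libraries was left undecided. By deviations from group means, same-numbered libraries of different lines correlated above 0.1 in 0 of 9 testis and 3 of 11 SG pairs. For pSC, rST and eST it was 7, 6 and 8 of 15 pairs. Their median correlation was 0.021 in testis, 0.067 in SG, 0.045 in pSC, 0.057 in rST and 0.101 in eST. Between libraries of other numbers the medians were −0.008, −0.021, −0.004, −0.027 and −0.021 in the same order. With DESeq2 size factors, tbrd-3 between pSC and rST in D. mel KO was not called (−1.80, adjusted p = 0.0718). The limit of the cyst comparisons is the spread between cysts, with 4 to 6 cysts a group.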
